A study of Homo sapiens with 8 samples.

Results

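The transcripts of 8 enzymes that handle glutamine, branched-chain and aromatic amino acids and ketone bodies were followed in human HEK293 cells expressing different RNA-binding proteins. The genes were GLUD1, GLUL, BCAT1, BCAT2, FAH, GSTZ1, CCBL2 and OXCT1, out of 36337 gene names on the array, and every probe carrying one of these names was used. They have 10 probes, because BCAT1 and CCBL2 have a second probe each. The genes were partly chosen by the readout itself, since FAH, BCAT1, CCBL2, GSTZ1 and OXCT1 had been listed as lower in TIA1 than in HuR cells, and OXCT1 also as lower in TIAR than in HuR cells. Values that rest on these comparisons are therefore given as a description, without a p-value.

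HEK293 is an established human embryonic kidney line. In its Flp-In T-REx form (FT293), a single copy of a transgene sits at a fixed genomic site under a promoter that tetracycline turns on. The 4 lines expressed GFP alone, GFP-HuR, GFP-TIA1 or GFP-TIAR, and RNA was taken after 3 days of tetracycline. The source field of the second TIA1 sample reads GFP-TIA2, whereas its title and genotype read GFP-TIA1, and it was grouped by its title. Each line was measured on 2 one-colour Agilent arrays, described as independent biological replicates, and all 8 arrays were on 1 slide. All lines carry the recombination site and received tetracycline, and every control line also makes a GFP or GFP-tagged protein, so no line without a transgene was compared here.

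HuR, TIA1 and TIAR bind uridine-rich stretches in RNA. HuR is known mainly for stabilizing its target mRNAs, whereas TIA1 and TIAR act in alternative splicing and in the repression of translation. The enzymes examined here work mostly in mitochondria and in the cytosol of liver, kidney and proliferating cells. Glutamine and glutamate are interconverted by synthetase and dehydrogenase reactions, branched-chain amino acids are first transaminated and then oxidized, tyrosine is degraded to fumarate and acetoacetate, and ketone bodies enter the citric acid cycle after activation by a CoA transferase.

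The probes are 60 bases long and are placed by the array design on hg19. Printed here, to show what was hybridized, are those of FAH, GSTZ1, CCBL2 and BCAT1 with at least 1 reading frame free of stop codons. Capitals mark TTT, which is UUU in the mRNA, and this mark and the choice of probes were made after the values were seen.
FAH, chr15:80467376-80469880, plus strand, across an exon junction: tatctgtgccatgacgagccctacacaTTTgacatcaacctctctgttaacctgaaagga
GSTZ1, chr14:77797434-77797493, plus strand: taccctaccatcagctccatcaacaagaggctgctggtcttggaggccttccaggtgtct
CCBL2, chr1:89426850-89426909, minus strand: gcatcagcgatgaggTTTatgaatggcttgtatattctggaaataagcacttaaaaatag
CCBL2, other probe, chr1:89418807-89420862, minus strand, across an exon junction: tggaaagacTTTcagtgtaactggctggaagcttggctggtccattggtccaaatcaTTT
BCAT1, other probe, chr12:24989496-24995040, minus strand, across an exon junction: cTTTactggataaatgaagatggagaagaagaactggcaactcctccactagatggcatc
TTT was present in 8 of the 10 probes and in 68.4% of all 50599 probes. The GLUD1 probe (chr10:88811026-88811085, minus strand) is also assigned by the array design to a transcript of GLUD2, a near-identical copy, and its signal can come from either transcript. The array names CCBL2 by an older symbol for the gene that RefSeq lists as KYAT3.

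The 250 bases before the annotated start are shown for FAH, GSTZ1, CCBL2 and OXCT1, whose signals were lower together in both TIA lines. The sequences are from RefSeq on GRCh38.p14, with the first listed start used for FAH and OXCT1, and 7 of the 8 genes had an entry. Capitals mark GGGCGG (the GC box) and CCAAT, read on both strands, both chosen after earlier results of these data were known.
FAH, chr15:80152539-80152788, plus strand: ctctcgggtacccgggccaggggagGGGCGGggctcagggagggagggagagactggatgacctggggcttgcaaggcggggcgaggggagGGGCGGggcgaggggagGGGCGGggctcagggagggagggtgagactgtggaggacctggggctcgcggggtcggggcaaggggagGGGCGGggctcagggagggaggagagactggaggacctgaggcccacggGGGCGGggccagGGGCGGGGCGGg
GSTZ1, chr14:77320786-77321035, plus strand: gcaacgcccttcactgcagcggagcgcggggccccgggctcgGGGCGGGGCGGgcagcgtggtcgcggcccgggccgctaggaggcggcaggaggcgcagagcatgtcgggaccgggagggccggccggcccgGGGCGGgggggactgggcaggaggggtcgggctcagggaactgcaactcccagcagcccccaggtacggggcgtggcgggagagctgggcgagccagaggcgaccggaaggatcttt
CCBL2, chr1:88992630-88992879, minus strand: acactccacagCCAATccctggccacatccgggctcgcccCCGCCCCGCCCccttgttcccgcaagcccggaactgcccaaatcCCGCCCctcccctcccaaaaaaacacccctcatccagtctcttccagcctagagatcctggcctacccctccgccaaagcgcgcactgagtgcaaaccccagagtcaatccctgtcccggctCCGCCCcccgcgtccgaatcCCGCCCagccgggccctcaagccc
OXCT1, chr5:41870426-41870675, minus strand: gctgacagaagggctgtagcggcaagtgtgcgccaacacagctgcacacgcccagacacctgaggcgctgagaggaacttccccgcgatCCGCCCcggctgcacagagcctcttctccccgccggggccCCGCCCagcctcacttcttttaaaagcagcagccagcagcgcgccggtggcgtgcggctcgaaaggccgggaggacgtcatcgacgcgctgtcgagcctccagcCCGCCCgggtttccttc
The FAH window held 7 GC boxes, the CCBL2 window 5, and the GSTZ1 and OXCT1 windows 3 each. Over all annotated starts of the 7 genes, 9 of 14 windows, some of which overlap, held a GC box and 4 of 14 held CCAAT. Of 35116 windows of the same length over all genes, 42.6% and 32% did. GC content was 67.6% to 77.2% in the 4 windows shown and 34.8% to 80.4% over the 14 windows of the 7 genes. The median over all 35116 windows was 58%. Whether the GC boxes have a part in the results was not tested.

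Signals are given as log2 of the processed signal minus the 75th percentile of its array, so that 0 is the 75th percentile and a difference of 1 is 2-fold. Levels of different probes are not compared with each other, and in whole cultures fewer cells with a transcript and less RNA per cell cannot be told apart. All 10 probes were well above background on all 8 arrays and none was saturated. Each comparison was fitted with limma on its own 4 arrays. A probe was called when it changed at least 2-fold with a Benjamini-Hochberg adjusted p under 0.05 over all probes tested. The first GFP array stood apart, with 86% of probes well above background and a mean local background of 83.2, against 53.2% to 58.5% and 35.7 to 41.5 on the other arrays. The GFP arrays differed at least 2-fold from each other for 15.8% of probes detected on both, whereas this share was 0.455% in HuR, 1.13% in TIA1 and 1.45% in TIAR. Of 8 markers of the line, 7 were detected on all 8 arrays, as were 6 of 11 markers chosen as absent (liver, immune and erythroid), among them HBA2 and CD68. The summed erythroid level was 1.15 to 1.36 in HuR and 2.78 to 3.50 in the other lines, and its part in the results was not tested.

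**Figure D1:**
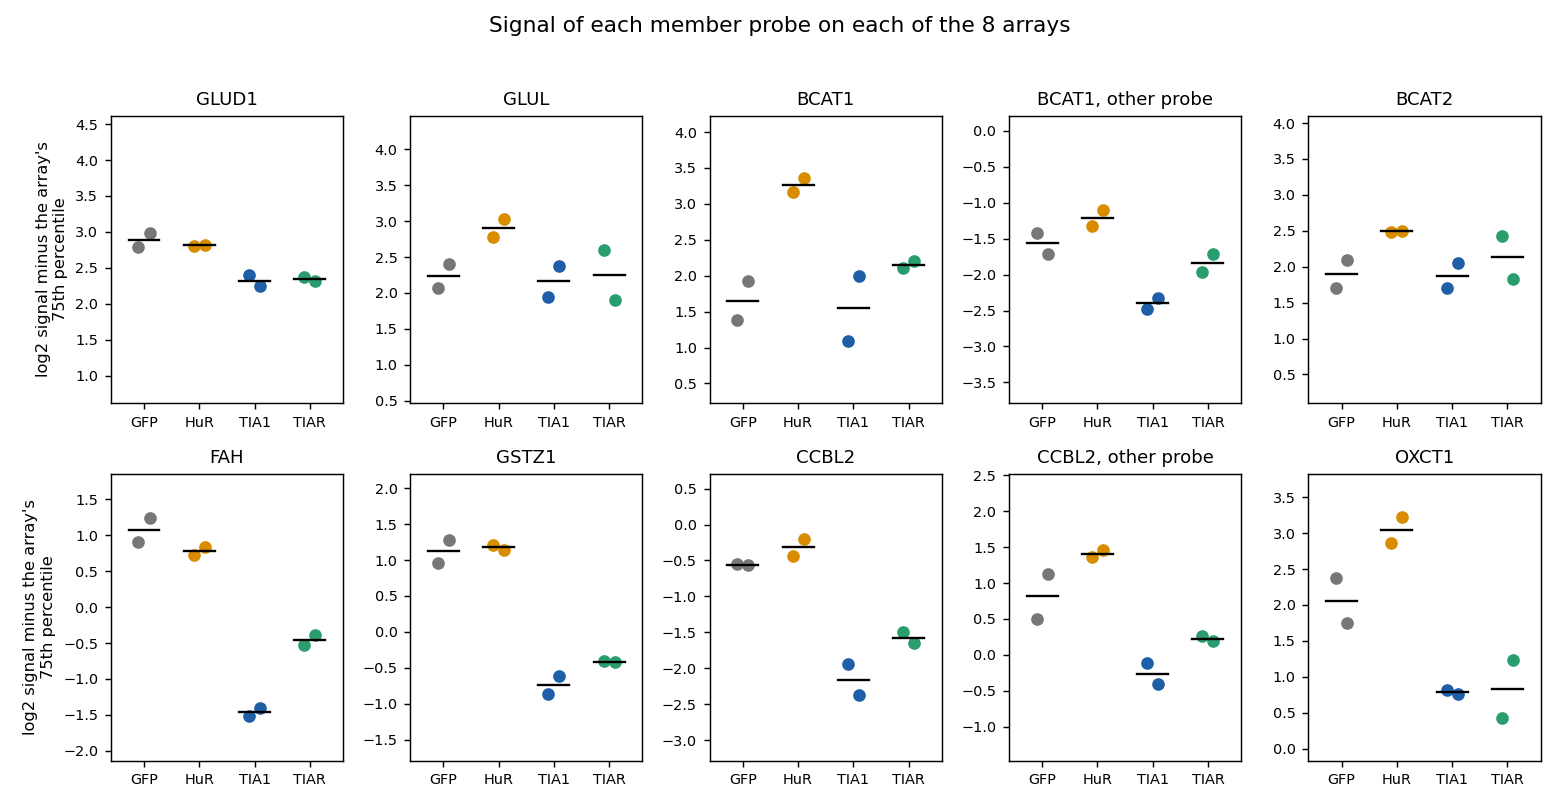
Each panel plots 1 probe, with the log2 signal minus the array's 75th percentile on the vertical axis (all panels span 4 units), a point for each of the 2 arrays of a line and a bar at their mean. FAH, GSTZ1, CCBL2 and OXCT1 have every TIA1 and TIAR array below every GFP and HuR array. BCAT1, GLUL and BCAT2, and also OXCT1 and CCBL2, stand highest in HuR.

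FAH, GSTZ1 and CCBL2, which act in tyrosine and tryptophan metabolism, were lower in both TIA lines than in both control lines. FAH, fumarylacetoacetate hydrolase, performs the final step of tyrosine degradation. Its log2 signal was 0.91 and 1.24 on the GFP arrays, 0.72 and 0.84 on the HuR arrays, -1.52 and -1.40 on the TIA1 arrays and -0.53 and -0.39 on the TIAR arrays. The lines were ordered GFP, HuR, TIAR and TIA1 from high to low, no arrays of different lines overlapped, and TIAR lay between the controls and TIA1. FAH was 4.74-fold lower in TIA1 than in HuR (log2 fold change -2.24 ± 0.10, SE, 2 arrays per line) and 2.36-fold lower in TIAR than in HuR (-1.24 ± 0.11).

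GSTZ1, maleylacetoacetate isomerase, acts 1 step before FAH in the same pathway. Its log2 signal was 0.96 and 1.28 in GFP, 1.21 and 1.14 in HuR, -0.87 and -0.62 in TIA1 and -0.41 and -0.42 in TIAR. Both control lines overlapped and both TIA lines lay below them. The difference from HuR was -1.92 ± 0.13 in TIA1 and -1.59 ± 0.09 in TIAR, which is 3.78-fold and 3-fold lower.

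CCBL2, a kynurenine aminotransferase that also has cysteine conjugate beta-lyase activity, was lower with both probes. The main probe gave -0.55 and -0.57 in GFP, -0.44 and -0.20 in HuR, -1.94 and -2.38 in TIA1 and -1.5 and -1.65 in TIAR. The other probe gave 0.50 and 1.13 in GFP, 1.36 and 1.46 in HuR, -0.11 and -0.41 in TIA1 and 0.26 and 0.19 in TIAR. On both probes the order was HuR, GFP, TIAR and TIA1. Against HuR the main probe differed by -1.84 ± 0.19 in TIA1 and -1.26 ± 0.13 in TIAR, and the other probe by -1.67 ± 0.14 and -1.18 ± 0.10.

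OXCT1, the succinyl-CoA transferase that activates acetoacetate for ketone body use (probe at chr5:41730471-41730530), had the largest difference between TIAR and HuR among these genes. Its log2 signal was 2.37 and 1.75 in GFP, 2.86 and 3.23 in HuR, 0.82 and 0.76 in TIA1 and 0.43 and 1.24 in TIAR. The lines TIA1 and TIAR overlapped, and all their arrays lay below the lowest control array. OXCT1 was 4.62-fold lower in TIAR than in HuR (-2.21 ± 0.32) and differed by -2.25 ± 0.16 between TIA1 and HuR. The SD of the TIAR arrays was 0.57, the widest of this gene in any line.

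BCAT1, the cytosolic branched-chain aminotransferase, was highest in HuR. The main probe (chr12:24964452-24964511) gave 1.38 and 1.92 in GFP, 3.17 and 3.36 in HuR, 1.09 and 2.00 in TIA1 and 2.11 and 2.20 in TIAR. On this probe GFP and TIA1 overlapped and HuR stood above every other array. The other probe gave -1.42 and -1.71 in GFP, -1.32 and -1.10 in HuR, -2.48 and -2.32 in TIA1 and -1.97 and -1.71 in TIAR. The probes disagreed on the size of the HuR difference from GFP, which was 1.62 ± 0.26 on the main probe and 0.35 ± 0.20 on the other. They also differed in sign between TIAR and GFP, at 0.50 ± 0.27 and -0.27 ± 0.23. Against HuR the main probe differed by -1.72 ± 0.33 in TIA1 and -1.12 ± 0.12 in TIAR, and the other probe by -1.19 ± 0.13 and -0.63 ± 0.15.

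BCAT2, the mitochondrial branched-chain aminotransferase (probe at chr19:49298563-49298622), differed less. Its log2 signal was 1.71 and 2.09 in GFP, 2.49 and 2.50 in HuR, 1.70 and 2.05 in TIA1 and 2.43 and 1.83 in TIAR. Except for HuR, the lines overlapped. The difference from HuR was -0.62 ± 0.15 in TIA1 and -0.37 ± 0.23 in TIAR, both under 2-fold.

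GLUL, glutamine synthetase (probe at chr1:182352737-182352796), showed the same form as BCAT2. Its log2 signal was 2.07 and 2.40 in GFP, 2.78 and 3.03 in HuR, 1.94 and 2.38 in TIA1 and 2.60 and 1.90 in TIAR. HuR was the only line whose arrays did not overlap those of another line, and the difference from HuR was -0.75 ± 0.19 in TIA1 and -0.66 ± 0.27 in TIAR. GLUD1, glutamate dehydrogenase, which releases ammonia from glutamate in mitochondria, was at 2.79 and 2.99 in GFP, 2.81 and 2.82 in HuR, 2.40 and 2.24 in TIA1 and 2.37 and 2.31 in TIAR. Its difference from HuR was -0.50 ± 0.10 in TIA1 and -0.48 ± 0.09 in TIAR, a small difference with no overlap between TIA and control arrays.

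In TIA1 against HuR, 5 of the 8 genes were called lower (BCAT1, FAH, GSTZ1, CCBL2 and OXCT1) and 0 higher. Over all 21242 gene names tested in this comparison, 5.79% were called lower and 10.2% higher. The same 5 genes were called lower in TIAR against HuR, where 3.66% of 21526 gene names were called lower and 8.62% higher. Since 5 of the genes were chosen by TIA1 against HuR and both comparisons share the HuR arrays, nothing is read from these counts. The median log2 fold change of the 8 genes was -1.78 and -1.18 in these comparisons, against 0.08 and 0.05 over all probes tested. Without either HuR array, 1 of the 8 genes was called in TIAR against HuR, and 84 to 92 of all gene names were then called lower in place of 788.

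The comparison of TIAR with GFP used no array of TIA1 against HuR and was the test planned for these genes. None of the 8 genes was called with limma, and neither was any other, since 0% of 21163 gene names were called lower and 0% higher. FAH differed by -1.53 ± 0.22 (adjusted p = 0.18), GSTZ1 by -1.54 ± 0.22 (adjusted p = 0.18) and CCBL2 by -1.01 ± 0.19 (adjusted p = 0.20). OXCT1 differed by -1.22 ± 0.41, given without a p-value because the TIAR arrays had helped to choose it. For these 4 genes, both TIAR arrays were below both GFP arrays. GLUD1 differed by -0.55 ± 0.20 (adjusted p = 0.30), BCAT1 by 0.50 ± 0.27 (adjusted p = 0.42), BCAT2 by 0.23 ± 0.31 (adjusted p = 0.72) and GLUL by 0.02 ± 0.33 (adjusted p = 0.98).

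The smallest adjusted p of any probe in this comparison was 0.12. At an unadjusted p under 0.05 and at least 2-fold, 941 gene names were lower and 1091 higher with limma. FAH, GSTZ1 and CCBL2 were among the lower ones, and OXCT1 is not counted because the TIAR arrays had helped to choose it. With all 8 arrays in a single limma fit, FAH (adjusted p = 0.0084), GSTZ1 (adjusted p = 0.0092) and CCBL2 (adjusted p = 0.028) were called lower at the same fold changes, as were 3.13% of all gene names. That fit takes part of its spread from the TIA1 and HuR arrays that chose the genes. Leaving out the first GFP array, which stood apart, FAH (-1.70, limma adjusted p = 0.032) and GSTZ1 (-1.70, adjusted p = 0.03) were called, as were 2.15% of all gene names lower. Leaving out the second GFP array, FAH (-1.37, limma adjusted p = 0.016), GSTZ1 (-1.37, adjusted p = 0.014) and CCBL2 (-1.02, adjusted p = 0.029) were called, as were 19.5% of all gene names lower. In both, the remaining GFP array was assumed to vary like the TIAR arrays. The calls thus changed with the arrays in the fit. Over the alternatives, the log2 fold change ranged from -1.77 to -1.37 for FAH and from -1.70 to -1.37 for GSTZ1. It ranged from -1.62 to -0.82 for OXCT1 and from -1.09 to -0.59 for CCBL2. The limit of -0.59 is the other CCBL2 probe at the main setting (-0.59 ± 0.29). Over the alternatives that probe ranged from -0.91 to -0.22.

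TIA1 against GFP shares the TIA1 arrays with the comparison that chose members and is given without a p-value. FAH differed by -2.54 ± 0.22, GSTZ1 by -1.87 ± 0.23, CCBL2 by -1.60 ± 0.24 and OXCT1 by -1.26 ± 0.29. GLUD1 differed by -0.57 ± 0.20, BCAT1 by -0.11 ± 0.42, BCAT2 by -0.03 ± 0.26 and GLUL by -0.07 ± 0.27. These values are of the main probes. The other BCAT1 probe differed by -0.83 ± 0.22, with no overlap between TIA1 and GFP arrays, so the BCAT1 probes disagree. The other CCBL2 probe differed by -1.08 ± 0.31. None was called with limma, and 0% of 20741 gene names were called lower and 0% higher. At an unadjusted p under 0.05 and at least 2-fold, 1308 gene names were lower and 1380 higher, and with all 8 arrays in a single fit 4 of the 8 genes and 5.17% of all gene names were called lower.

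HuR against GFP shares the HuR arrays with that comparison. BCAT1 was 3.07-fold higher in HuR on its main probe (1.62 ± 0.26), OXCT1 differed by 0.99 ± 0.31, GLUL by 0.67 ± 0.21 and BCAT2 by 0.59 ± 0.21. FAH (-0.29 ± 0.20), GSTZ1 (0.05 ± 0.19), CCBL2 on its main probe (0.24 ± 0.17) and GLUD1 (-0.08 ± 0.17) differed less, and the other CCBL2 probe differed by 0.59 ± 0.28, with no overlap between HuR and GFP arrays. None was called with limma, 0% of 21376 gene names were called lower and 0% higher, and at an unadjusted p under 0.05 and at least 2-fold 1161 gene names were lower and 594 higher. FAH and GSTZ1 thus differed more between the TIA lines and GFP than between HuR and GFP. For BCAT1 (main probe), GLUL and BCAT2 the HuR arrays were the highest, and for BCAT1 the TIAR arrays also lay above those of GFP and TIA1. The HuR arrays were also the highest for OXCT1, both CCBL2 probes and the other BCAT1 probe.

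**Figure D2:**
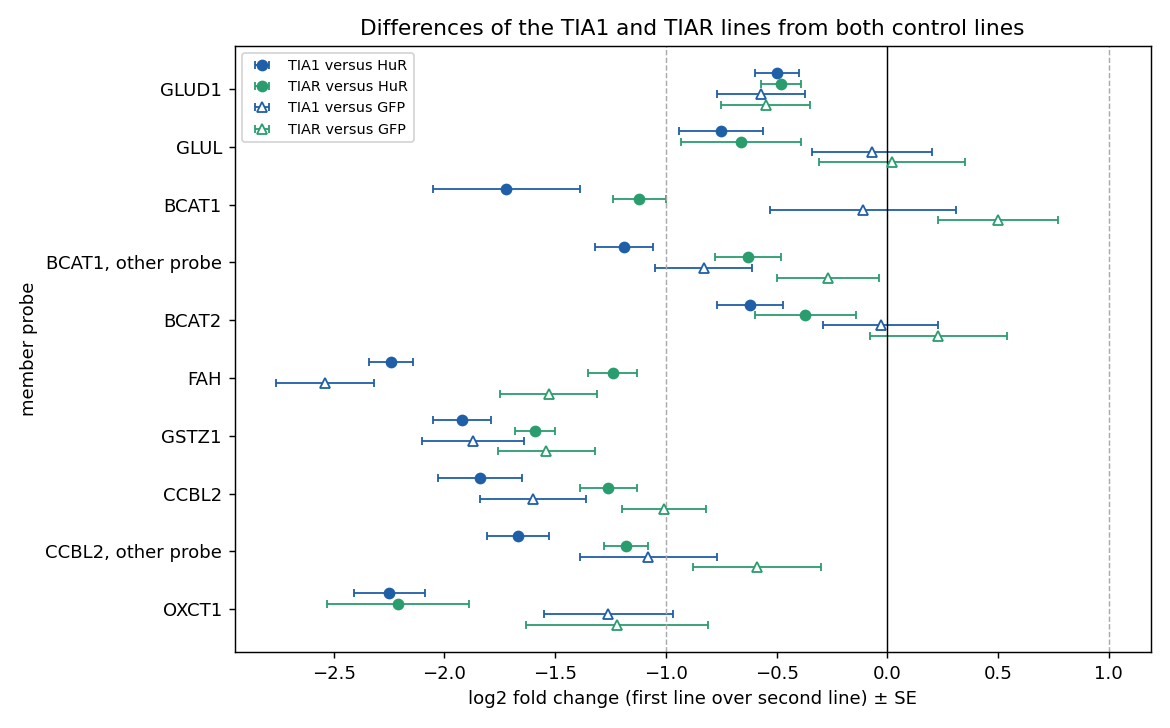
Points give the log2 fold change of each probe and bars its SE, with 2 arrays per line; filled circles compare with HuR, open triangles with GFP, and dashed lines mark 2-fold. FAH, GSTZ1 and CCBL2 lie left of 0 against both controls, whereas BCAT1 (main probe), GLUL and BCAT2 lie left of 0 against HuR and near 0 or, for BCAT1 in TIAR, at 0.50 against GFP.

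All 4 TIA arrays lay below all 4 control arrays for GLUD1, FAH, GSTZ1, OXCT1 and both CCBL2 probes, and on the other BCAT1 probe by a gap that rounds to 0.00. This held for 10.2% of the 24959 probes detected on all 8 arrays, and it is a description chosen after the values were seen. The gap between the nearest TIA and control arrays was 1.37 for GSTZ1, 1.11 for FAH, 0.93 and 0.24 for the main and other CCBL2 probe, 0.51 for OXCT1 and 0.40 for GLUD1 on the log2 scale.

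TIAR and TIA1 were compared directly as well. FAH was 2.01-fold higher in TIAR than in TIA1 (log2 fold change 1.00 ± 0.12), at the 2-fold threshold, and was the 1 gene of the 8 called. In that comparison 1.37% of 20786 gene names were called lower and 1.56% higher. FAH was no longer called with normexp background correction, with quantile normalization, with the values of the authors' table, without the filter on dim probes or when any 1 array was left out. The other differences were 0.61 ± 0.32 for BCAT1, 0.58 ± 0.19 for CCBL2, 0.33 ± 0.14 for GSTZ1, 0.25 ± 0.26 for BCAT2, 0.09 ± 0.29 for GLUL, 0.04 ± 0.29 for OXCT1 and 0.02 ± 0.12 for GLUD1.

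The other enzymes of these pathways were examined in lists of 67 genes, without the 8 above, and were tested in each comparison. In TIA1 against HuR, 57 were tested, 5 fell and 3 rose, and in TIAR against HuR 58 were tested, 2 fell and 3 rose. Not every called gene is described here. Over all gene names, 5.79% were called lower and 10.2% higher in the first of these comparisons and 3.66% and 8.62% in the second. The median log2 fold change of these lists was -0.27 and -0.20, against 0.08 and 0.05 over all probes. In the comparisons of HuR, TIA1 and TIAR with GFP, 57 to 59 were tested and 0 were called with limma.

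BCKDHB, a subunit of the branched-chain ketoacid dehydrogenase, fell in both comparisons. All 3 of its probes were called in TIAR against HuR, at -1.23 ± 0.09, -1.40 ± 0.22 and -1.25 ± 0.10 (limma adjusted p = 0.0054, 0.017 and 0.0058), and 1 of them in TIA1 against HuR, at -1.20 ± 0.22 (limma adjusted p = 0.018). DBT, another subunit of that complex, fell in TIA1 with 1 probe (-1.38 ± 0.12, limma adjusted p = 0.0038), while its other probe differed by 0.10 ± 0.09. PCCB, a subunit of propionyl-CoA carboxylase, was lower in TIA1 than in HuR by 1.17 ± 0.20 on the log2 scale (limma adjusted p = 0.016). Its mean signal was 1.85 in HuR, 1.29 in GFP and 0.68 in TIA1. In TIA1 against GFP, PCCB differed by -0.60 ± 0.24, and the called probes of DBT and BCKDHB by -0.75 ± 0.55 and -0.85 ± 0.24. None of these was called.

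IVD, isovaleryl-CoA dehydrogenase of leucine breakdown, rose with 1 probe, by 2.02 ± 0.14 in TIA1 and 1.66 ± 0.11 in TIAR (limma adjusted p = 0.0029 and 0.0048). Its other probe went the opposite way, at -0.73 ± 0.14 and -0.58 ± 0.12, so the probes of IVD disagree. QPRT, which takes quinolinate into NAD synthesis, rose by 1.29 ± 0.11 in TIA1 and 1.77 ± 0.13 in TIAR (limma adjusted p = 0.0038 and 0.0054). Its mean signal was 1.28 ± 0.07 (SD, n = 2) in HuR, 2.57 ± 0.11 in TIA1, 3.05 ± 0.18 in TIAR and 2.44 ± 0.20 in GFP, so that HuR was the low line.

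In the ketone body list, BDH2 rose in TIA1 by 1.12 ± 0.14 (limma adjusted p = 0.0074). BDH1, the hydroxybutyrate dehydrogenase, was not well above background on either HuR array and was at least 1.76-fold higher in TIAR than in HuR (limma adjusted p = 0.0046). In the kynurenine list, TDO2, tryptophan dioxygenase, was not well above background on the TIA1 arrays, so HuR was at least 1.53-fold higher than TIA1 (limma adjusted p = 0.016). Both genes entered their test through the line in which they are bright, and both are counted as called above. Their adjusted p-values belong to the fitted differences, which include signals not well above background, and not to the bounds. Both bounds are under 2-fold. These bounds set the dim line at the lowest signal that its arrays called well above background. In the list for phenylalanine and tyrosine, the pathway of FAH and GSTZ1, 4 of 7 genes were tested in each comparison with HuR and 0 were called with limma, and the other genes were too dim to be tested.

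**Figure D3:**
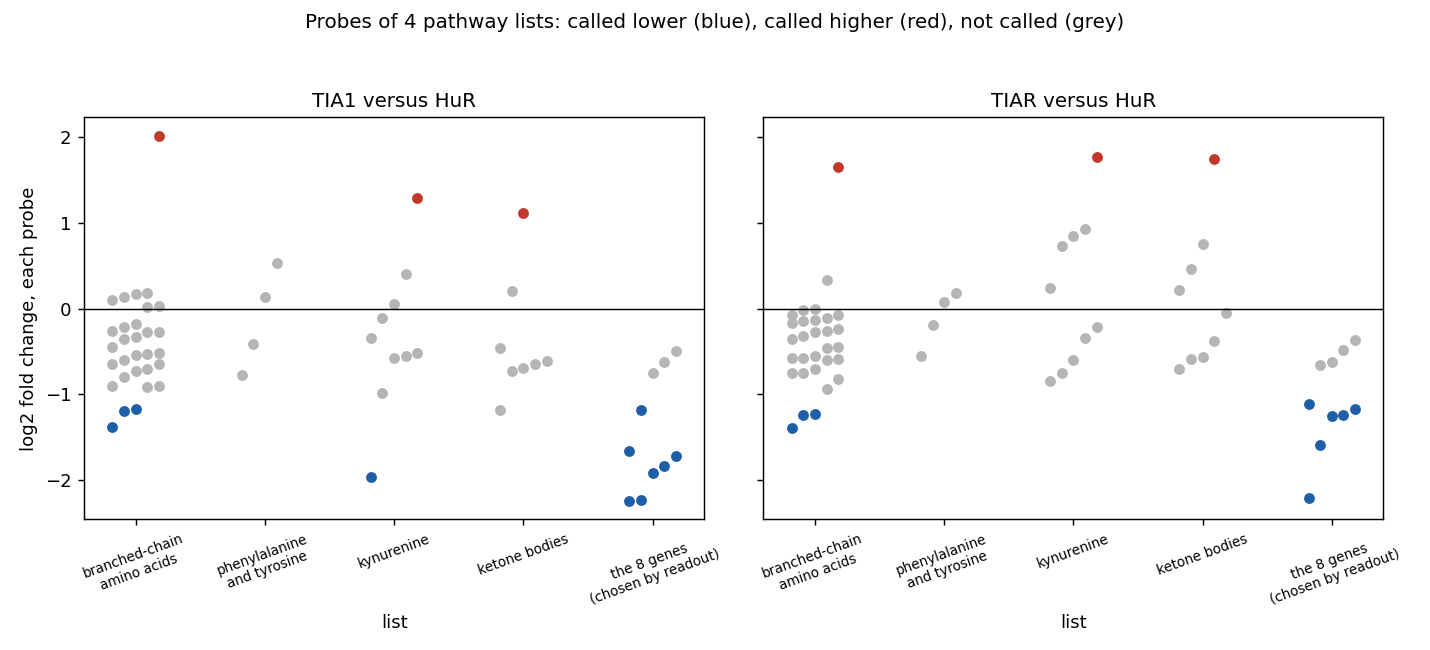
Each point is the log2 fold change of 1 probe of the branched-chain, phenylalanine and tyrosine, kynurenine and ketone lists in TIA1 or TIAR against HuR, coloured by whether it was called, with the probes of the 8 genes at the right. Most list probes are grey, called points lie on both sides of 0, and the 8 genes at the right were partly chosen by this readout.

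The genes with the pattern most like that of FAH, by Pearson's r of the log2 signal over the 8 arrays, were RTKN (0.997), XLOC_l2_009312 (0.993), B9D1 (0.992), PDK3 (0.991) and RLN2 (0.990), among 5999 other probes detected on all arrays with an SD of at least 0.5. GSTZ1 ranked 65 by this measure (0.965) and CCBL2 112 (0.950), while OXCT1 was at 0.791. The genes most like OXCT1 were MTR (0.983), TMEM158 (0.979), XLOC_001748 (0.977), HMGN5 (0.972) and FAM86C1 (0.970), and CCBL2 ranked 173 (0.882). These correlations are descriptions, since the 8 arrays are 4 pairs of replicates from the same slide.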

How the data were processed

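RNA of the 4 lines was hybridized to Agilent 8x60K arrays, 2 per line. The authors deposited intensity values (processed signals) from Feature Extraction 10.7.3.1, background-subtracted and not normalized between arrays, and a table of log2 values, deposited after a normalization that the sources used here do not describe. The submitters' processing notes name limma.

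Processed signals were log2-transformed, each array's 75th percentile was subtracted, outlier spots were left out and the spots of each of 50599 probes were averaged. A probe entered a test when both arrays of either compared line showed it well above background. Tests used limma 3.58.1 (lmFit, eBayes) in R 4.3.3, on 4 arrays per comparison, and called at 2-fold and an adjusted p under 0.05. The script was tested on simulated data, where changed probes were recovered in the comparisons among HuR, TIA1 and TIAR but not in those with GFP, so the absence of calls there is not read as an absence of differences. Figures were drawn with matplotlib 3.10.9 in Python 3.11.15, and data.table (version 1.17.8) handled the input. The number of arrays limits the precision, and the p-values set the difference between lines against the spread between arrays of the same line. Each protein was expressed in a single line, so its effect cannot be told apart from other differences between the lines.

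The members and lists were chosen with earlier results of these data known. The main probe of a gene was that in the study's tables, otherwise the brightest. Up to 3 called genes per list and comparison, and the 5 genes most like FAH and OXCT1, could be named, and some genes under this rule are left out of the text. Alternatives were normexp correction (offset 50), quantile normalization, the authors' log2 values, other filters on dim probes and all 8 arrays in a single fit. Further ones were a block for the replicate number, omission of single arrays, the study's general paired t-test and the other probe of a gene. No genome of the hg19 build was used, so probes were not placed in exons or untranslated regions.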

Additional observations from a re-analysis of the deposited data

Results flagged for a closer look

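The direct test of TIAR against TIA1 used only the arrays of these lines and no control array. In it, 3 of the genes examined were called, beside 1.37% of 20786 gene names lower and 1.56% higher. FAH was higher in TIAR by 1.00 on the log2 scale, given without a p-value because the TIA1 arrays helped to choose it. HAAO, which converts hydroxyanthranilate in the kynurenine pathway, was higher in TIAR by 1.48 ± 0.19 (limma adjusted p = 0.041). The other HAAO probe differed by 1.26 ± 0.34 and was not called, and neither TIA1 array showed it well above background. TDO2 was higher in TIAR by a fitted 2.82 (limma adjusted p = 0.037), but neither TIA1 array showed it well above background and it entered the test through TIAR, so the measured difference is a bound, at least 2.75-fold higher in TIAR.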

How the results depend on the processing

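The study names a paired t-test for comparing groups in general, and limma for its array genes. In TIA1 against HuR, that paired test at an unadjusted p called 2.9% of all gene names lower and 5.53% higher. After Benjamini-Hochberg adjustment it called 0% of all gene names in that comparison and in TIAR against HuR. With so few pairs of arrays, this absence of calls is not read as an absence of differences. In TIA1 against HuR, the count of 5 called genes became 2 with the unadjusted paired test and 0 with the adjusted one. In TIAR against HuR it became 0 with the adjusted paired test and ranged from 1 to 6 without single arrays. Against GFP, where 0 genes were called, all 8 arrays in a single fit gave 3 for TIAR, 4 for TIA1 and 1 for HuR (beside 3.13%, 5.17% and 3.29% of all gene names lower and 4.4%, 6.07% and 1.75% higher). The unadjusted paired test gave 2 for TIAR and 2 for TIA1, but the share of all gene names is not given here, so nothing is read from these counts. The counts against GFP also changed when single arrays were left out. Without GFP replicate 2, 19.5%, 20.1% and 24.7% of all gene names were called lower in these comparisons. In TIAR against TIA1 the count was 0 with normexp correction, quantile normalization, the authors' values, no filter, the replicate block and the adjusted paired test, and 0 to 0 without single arrays. In TIAR against GFP, GLUL turned to -0.06 and the other BCAT1 probe to 0.09 with quantile normalization, GLUL ranged from -0.33 to 0.37 and BCAT2 from -0.07 to 0.53 without single arrays (the lowest without TIAR replicate 1, and GLUL was at -0.14 without GFP replicate 1), and BCAT1 to -0.27 on its other probe. None of these was called, and the cause of these shifts was not tested.

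Labels give no shared batch for the replicate numbers, and deviations of same-numbered arrays correlated at -0.09 to 0.18, so the numbers were not taken to pair the samples. With the replicate block, 5 of the 8 genes were called in TIA1 against HuR, beside 5.94% of all gene names lower and 10.3% higher. In TIAR against HuR the count was also 5, beside 3.69% lower and 8.63% higher. It was 0 in each comparison with GFP and 0 in TIAR against TIA1. Since 5 of the genes were chosen by this readout, nothing is read from these counts. Over all gene names, quantile normalization turned 1230 lower and 2175 higher in TIA1 against HuR into 1407 and 1612, and 788 and 1855 in TIAR against HuR into 990 and 1277. With the authors' log2 values, 656 gene names were lower and 866 higher in TIA1 against HuR, and 467 and 687 in TIAR against HuR. With normexp correction, these counts were 617 and 1365 in TIA1 and 405 and 1056 in TIAR against HuR. Quantile normalization moved the median of all probes in TIAR against GFP to 0.21, from -0.02.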
